A study of Homo sapiens with 2 samples.

Results

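The genes studied here are 10 chosen protein-coding genes of the 17q12 amplicon around ERBB2: in their order along chromosome 17, MED1, CDK12, PPP1R1B, STARD3, TCAP, PNMT, PGAP3, ERBB2, MIEN1 and GRB7. They were taken as the array rows that the platform annotation gives these symbols, and all 10 were found among the 22412 genes that could be named. ERBB2 has no row of its own and was read from the row annotated jointly to ERBB2 and MIR4728, a microRNA gene that lies within it, so its values cannot be assigned to either gene alone. CDK12 has 2 rows and the other genes have 1 each.

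The values come from 2 Affymetrix Human Transcriptome arrays. One held total RNA of NCI-N87 cells made resistant to T-DM1 (trastuzumab emtansine, written TDM-1 in the labels), and the other total RNA of the untreated parental NCI-N87 cells, a human gastric carcinoma line. The labels give no dose, length of selection, clone or passage for the resistant line, and no statement on drug at harvest. With 1 array per group there was no replicate, no standard error and no test, and every difference below describes these arrays.

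Extra copies of a stretch of 17q12 are found in a subset of gastric and breast cancers, and NCI-N87 is a line with this amplification. ERBB2 encodes HER2, a receptor tyrosine kinase that signals as a dimer with other ERBB receptors, and it is the target of the antibody trastuzumab. T-DM1 carries a microtubule poison on that antibody, is taken up with HER2 and releases the poison in lysosomes. Neighbouring genes are copied together with ERBB2 and are often expressed with it, although their products have unrelated tasks. Copy number was not measured here.

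Each difference is the resistant less the parental value, in the log2 units of the deposited table. A gene was called higher or lower when the difference was at least 1 in size and its larger value reached 5.79. That floor is the median, over all genes, of the larger of a gene's values. Of 11206 genes at or above the floor, 18.7% were called, with 9.58% higher and 9.12% lower in resistant cells. Among the amplicon genes 9 of 10 lay at or above the floor, and of these 1 was called higher, none lower and 8 neither. CDK12 was counted in its row with the higher mean, and its other row is described below. The called gene was PPP1R1B. In RNA of a whole culture, more cells that express a gene and more RNA per cell cannot be told apart. Their median difference was -0.12, against 0.01 over all genes at or above the floor, and 5 of the 9 differed by less than 0.5, against 56.8% of all genes at or above the floor.

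**Figure D1:**
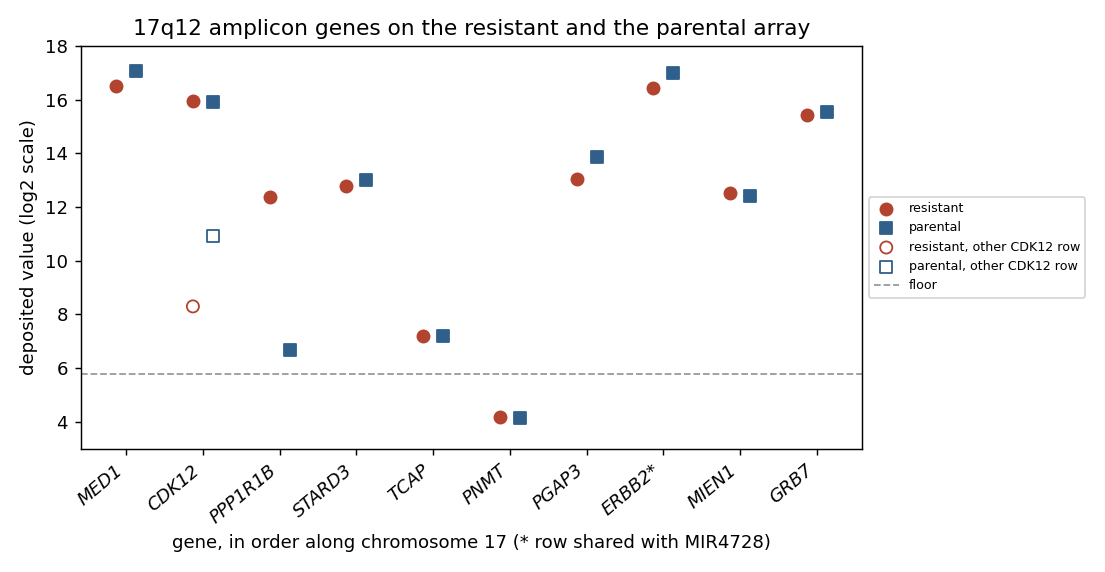
Deposited values (log2 scale, vertical axis) of the 10 amplicon genes in chromosome order, with circles for the resistant and squares for the parental array (1 array each, so no error bars) and open symbols for the other CDK12 row. PPP1R1B stood at 12.4 on the resistant and 6.69 on the parental array, while the filled symbols of each other gene differed by at most 0.81.

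The start of ERBB2 in the RefSeq promoter entries lies 37 bases from that of PGAP3, which runs the other way. These genes and MED1 had the 3 most negative differences among the members, taking the CDK12 row with the higher mean. The windows from 250 bases before to 50 bases after the starts of ERBB2 and PGAP3 are therefore shown. Each runs 5′ to 3′ on its gene's strand, with the 136 bases that both windows hold in capitals. The sequences are RefSeq's on GRCh38.p14, where 6 of the 10 genes had an entry.
ERBB2, chr17:39687844-39688143, plus strand: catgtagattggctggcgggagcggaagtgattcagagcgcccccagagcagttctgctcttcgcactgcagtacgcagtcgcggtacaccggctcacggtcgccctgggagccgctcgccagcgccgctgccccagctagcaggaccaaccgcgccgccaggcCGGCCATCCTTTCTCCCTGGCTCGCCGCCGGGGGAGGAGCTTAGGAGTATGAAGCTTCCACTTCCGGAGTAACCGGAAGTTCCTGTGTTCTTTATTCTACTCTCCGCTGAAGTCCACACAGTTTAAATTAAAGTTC
PGAP3, chr17:39688008-39688307, minus strand: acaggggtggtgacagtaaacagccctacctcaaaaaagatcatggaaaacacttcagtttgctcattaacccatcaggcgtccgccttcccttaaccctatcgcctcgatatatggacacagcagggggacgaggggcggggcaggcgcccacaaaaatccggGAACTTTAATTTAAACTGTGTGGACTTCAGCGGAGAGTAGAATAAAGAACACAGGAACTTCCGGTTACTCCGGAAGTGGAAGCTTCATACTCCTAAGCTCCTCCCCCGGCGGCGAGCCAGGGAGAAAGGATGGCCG

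The shared stretch holds 2 matches to CCGGAA, the core recognised by ETS transcription factors, searched on both strands and chosen after the sequences were seen. Of 35116 promoter windows of the same length, 17.2% hold at least 1 match. The windows of STARD3 and MIEN1 also hold 1 match each, and those of MED1 and CDK12 hold none. The ERBB2 window further holds 1 match to the AP-1 letters TGANTCA, found in 7.71% of windows, and 1 to CCAAT, found in 34.6%, and the PGAP3 window 1 match to the GC box GGGCGG, found in 45%. Neither window holds TATAAA, found in 11.5%. ERBB2 is known to have further start sites downstream of this window. A match to these letters is a description and not a site of binding.

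The joint row may also carry signal of the microRNA's precursor. Its mature arms are shown because they are the other annotated product of that row, with the seed (bases 2 to 8) in capitals.
hsa-miR-4728-5p: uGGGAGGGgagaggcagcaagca
hsa-miR-4728-3p: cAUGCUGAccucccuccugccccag
The arms lie at chr17:39726496-39726518 and chr17:39726537-39726561 (GRCh38.p14, plus strand), and their seeds differ.

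The receptor row and the adaptor gene GRB7 were slightly lower on the resistant array and were not called. The joint ERBB2 row had 16.44 on the resistant and 16.99 on the parental array, a difference of -0.54, or 1.46-fold lower on the deposited scale. GRB7, whose product is an SH2-domain adaptor that binds HER2, had 15.4 on the resistant and 15.5 on the parental array, a difference of -0.12. Less the median of the flanking genes described below (-0.34), the ERBB2 row differed by -0.20 and GRB7 by 0.22, so the sign of GRB7 turned with this scaling. The values of the ERBB2 row on both arrays exceeded 16, which plain log2 brightness from a 16-bit scanner cannot, so a step of 1 on this scale need not be exactly a 2-fold step in brightness.

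The transcription genes of the amplicon were not called in their main rows, but the rows of CDK12 disagreed. MED1, a Mediator subunit that contacts nuclear receptors, had 16.5 on the resistant and 17.1 on the parental array, a difference of -0.56, close in size to that of the ERBB2 row. CDK12, a kinase that phosphorylates RNA polymerase II during elongation, had 15.96 on the resistant and 15.91 on the parental array in the row with the higher mean, a difference of 0.05, which was -0.10 with quantile normalization. The other CDK12 row had 8.30 on the resistant and 10.9 on the parental array, a difference of -2.63 that would meet the size rule as lower. The mean of both rows gave -1.29, so whether CDK12 counts as lower or as neither depends on the row used. Which exons or transcripts each row covers was not examined here.

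Genes of membranes, lipids and migration were divided between small and moderate differences. PGAP3, which remodels the lipid part of glycosylphosphatidylinositol (GPI) anchors, had 13.0 on the resistant and 13.9 on the parental array, a difference of -0.81, or 1.76-fold lower. It was the most negative of the members read from their main rows, yet under the size rule. STARD3, which binds cholesterol in the late endosome membrane and tethers it to the endoplasmic reticulum, had 12.8 on the resistant and 13.0 on the parental array, a difference of -0.20. MIEN1, whose small prenylated product promotes cell migration, had 12.5 on the resistant and 12.4 on the parental array, a difference of 0.12. Less the flanking median, STARD3 differed by 0.15 and MIEN1 by 0.47.

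PPP1R1B was the exception. It encodes DARPP-32, which when phosphorylated by protein kinase A inhibits protein phosphatase 1 and which is best known from dopamine-responsive neurons. An isoform lacking the N-terminal part, t-DARPP, was described in gastric cancer and has been studied in trastuzumab resistance. The gene had 12.4 on the resistant and 6.69 on the parental array, both above the floor, a difference of 5.68 or 51.1-fold on the deposited scale. Its single row does not separate the isoforms. The difference lay between 5.65 and 6.02 under every scaling tried. Among 602 chromosome 17 genes at or above the floor (protein-coding only) it ranked 1st, followed by FOXJ1 at 3.77. The protein-coding genes whose difference was closest to it, over the same 2 arrays, were ABCC2 on chromosome 10 (5.65) and EAPP (5.73) and CFL2 (5.42) on chromosome 14, and this likeness rests on a single difference per gene.

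TCAP and PNMT, normally expressed in other tissues, differed by less than 0.02 on the deposited scale. TCAP, which caps titin in the sarcomere of striated muscle, had 7.19 on the resistant and 7.18 on the parental array, a difference of 0.01. PNMT, the enzyme that makes adrenaline from noradrenaline, had 4.17 on the resistant and 4.15 on the parental array, under the floor on both. Neither gene moved with its neighbour PPP1R1B. The signs of these small differences turned under other scalings, and less the flanking median TCAP differed by 0.35 and PNMT by 0.36. NEUROD2, a neuronal transcription factor gene and the only other protein-coding gene measured between MED1 and GRB7, was also under the floor, at 4.17 on the resistant and 4.11 on the parental array.

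**Figure D2:**
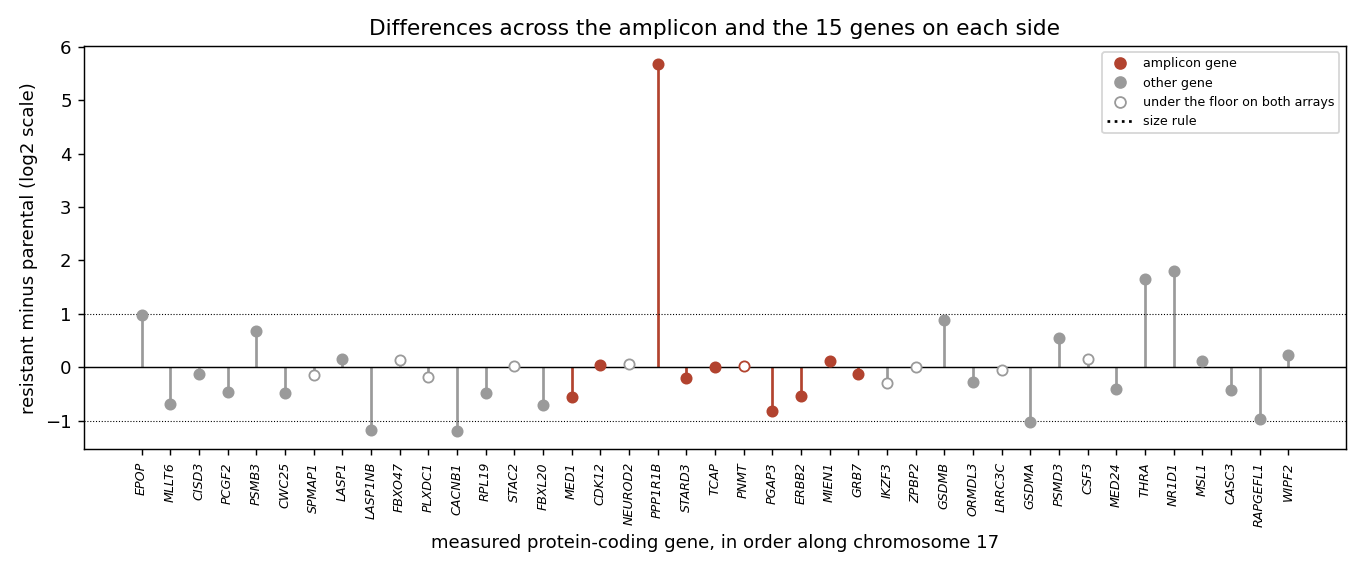
Difference (resistant minus parental, log2 scale, vertical axis) for the amplicon genes and the 15 measured protein-coding genes on each side, in chromosome order, with open circles for genes under the floor on both arrays and dotted lines at the size rule. PPP1R1B, at 5.68, stands between NEUROD2 at 0.05 and STARD3 at -0.20. The other amplicon genes lie between -0.81 and 0.12, with CDK12 in its row with the higher mean. The other CDK12 row, at -2.63, is not drawn.

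The genes beside the chosen members did not share the difference of PPP1R1B. Of the 15 measured protein-coding genes before MED1, 11 lay at or above the floor, with a median of -0.48. Of these 11, none was called higher and 2 lower, against 9.58% and 9.12% of all genes at or above the floor. The lower genes were CACNB1 and LASP1NB. CACNB1, a calcium channel subunit gene, had 8.29 on the resistant and 9.49 on the parental array (-1.20). LASP1NB had 5.73 on the resistant and 6.90 on the parental array, at least 2.16-fold lower against the floor. Among the 11 genes on this side, 8 differences were negative and 3 positive. FBXL20, next to MED1, differed by -0.70 and the ribosomal protein gene RPL19 by -0.48. The 3 positive differences were those of EPOP (0.98), PSMB3 (0.67) and LASP1 (0.16). These uncalled genes were named with their values known. Of the 15 genes after GRB7, 11 lay at or above the floor, with a median of 0.12.

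On that side, of 11 genes at or above the floor, 2 were called higher and 1 lower. Over all genes at or above the floor these shares were 9.58% and 9.12%. NR1D1, which encodes the circadian repressor REV-ERB alpha, had 11.7 on the resistant and 9.94 on the parental array, a difference of 1.80. THRA, which encodes a thyroid hormone receptor, had 8.64 on the resistant and 6.99 on the parental array, a difference of 1.65. NR1D1 and THRA overlap on opposite strands, so their rows are uncertain as measures of each gene alone. GSDMA, a gasdermin gene, had 5.82 on the resistant and 6.85 on the parental array (-1.03). Over both sides together the 22 genes at or above the floor had a median of -0.34. The 8 amplicon genes at or above the floor other than PPP1R1B had a median of -0.16.

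Chromosome 17 as a whole was centred near 0. Over the same 602 genes it had a median difference of 0.03, with 14.6% called, 8.8% higher and 5.81% lower. In a running median over 21 of these genes, the lowest value on the chromosome was -0.48, in the window from TADA2A to MED1. MED1 is the first of the chosen genes, and where the amplified stretch ends in these cells was not measured. Windows centred on amplicon genes had medians between -0.27 and -0.20, and 8.42% of the 582 windows on the chromosome lay below these.

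**Figure D3:**
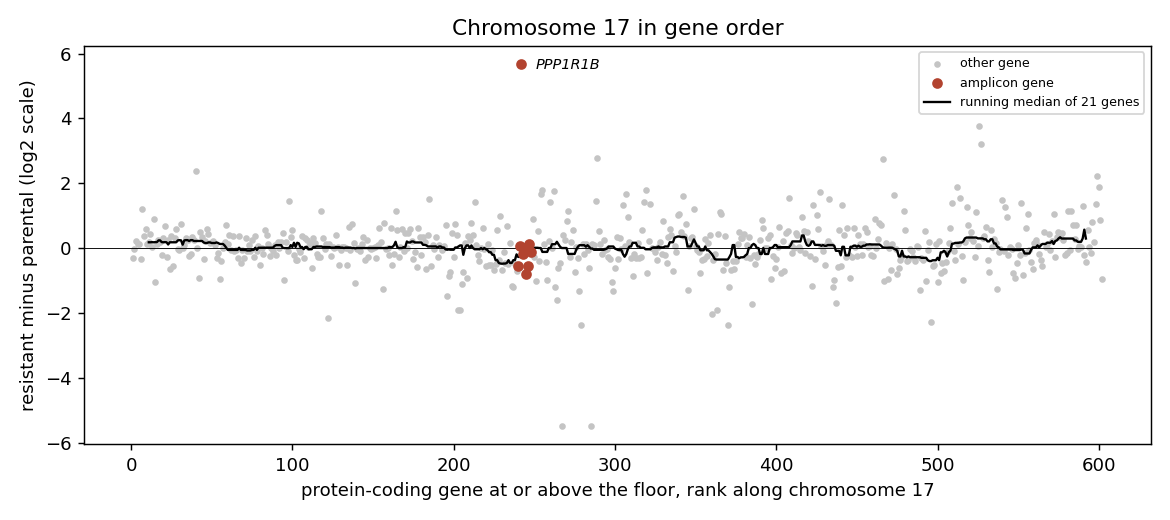
Difference (resistant minus parental, log2 scale) of 602 protein-coding chromosome 17 genes that reached the floor, in gene order, with the running median of 21 genes as a line and amplicon genes in red. The line runs between -0.48 and 0.57 and is at its lowest shortly before MED1, the first chosen gene, and PPP1R1B is the highest point at 5.68.

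The genes of the complexes and pathways that the amplicon's products belong to mostly did not meet the size rule. Of 117 such genes measured in 10 lists, 92 lay at or above the floor, and 4 were called higher and 7 lower, together 11.96% against 18.7% over all genes. Among 14 measured ERBB receptors and proximal HER2 partners, 1 was called higher and none lower (median of those at or above the floor 0.07). It was EGFR, a dimer partner of HER2, with 11.9 on the resistant and 10.3 on the parental array, a difference of 1.69, while the median of its chromosome 7 was 0.62. ERBB3, the kinase-impaired partner of HER2, had 11.4 on the resistant and 11.1 on the parental array (0.32). Of 6 relatives and partners of GRB7 none was called, and GRB14, a paralogue, differed by 0.73.

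Lower genes were found in the Mediator list and none in that of CDK12. Of 30 Mediator subunits measured beside MED1, 5 were called lower and none higher. The 27 at or above the floor had a median of -0.06, and over all genes at or above the floor 9.12% were called lower. MED23 differed by -1.84, CDK8, the kinase of the Mediator kinase module, by -1.62, and its paralogue CDK19 by -1.54. The other 2, CCNC (-1.28), the cyclin of that module, and MED4 (-1.20), were chosen after their values were seen. MED23, CDK19 and CCNC lie on chromosome 6 and CDK8 and MED4 on chromosome 13. The medians of the 15 nearest genes on each side were -1.28 for MED23, -0.99 for CDK19, -1.10 for CCNC, -1.03 for CDK8 and -1.08 for MED4, so their neighbours were lower too. With chromosome medians subtracted, 2 of the 5 still met the size rule, MED23 at -1.55 and CDK19 at -1.26. CCNC (-0.9993), CDK8 (-0.52) and MED4 (-0.11) did not. The median of chromosome 6 as a whole was -0.28, above the neighbour medians of MED23 and CDK19, which were not subtracted. Of 9 genes around CDK12, none was called. Its cyclin CCNK differed by 0.18, its paralogue CDK13 by 0.12, and CCNT2, a cyclin of the elongation kinase CDK9, by -0.96.

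The partners of PPP1R1B differed about as much as genes in general: 9 of the 16 at or above the floor lay within 0.5, against 56.8% of all such genes. The list of 23 genes held protein phosphatase 1, its inhibitors, protein kinase A and other phosphatases and kinases. It also held CDK5R1, which encodes an activator of CDK5, and the receptor genes DRD1, DRD2 and ADORA2A, all under the floor. Of the 23 genes, the rule called 1 higher and 1 lower. Those at or above the floor had a median of -0.11. CDK5, which phosphorylates DARPP-32, had 8.05 on the resistant and 7.04 on the parental array, a difference of 1.005, just past the size rule, and its chromosome 7 neighbours had a median of 0.63. Less the median of chromosome 7 it differed by 0.39 and was no longer called, nor was it with the floor at the 75th percentile. PPP3CA, a calcineurin catalytic subunit gene whose enzyme dephosphorylates DARPP-32, had 11.7 on the resistant and 13.1 on the parental array (-1.43). The catalytic subunits of the phosphatase that DARPP-32 inhibits differed by 0.21 (PPP1CA), 0.21 (PPP1CB) and 0.16 (PPP1CC), values chosen after they were seen. The other inhibitors of the same family, PPP1R1A and PPP1R1C, named on the same basis, did not reach the floor on either array.

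**Figure D4:**
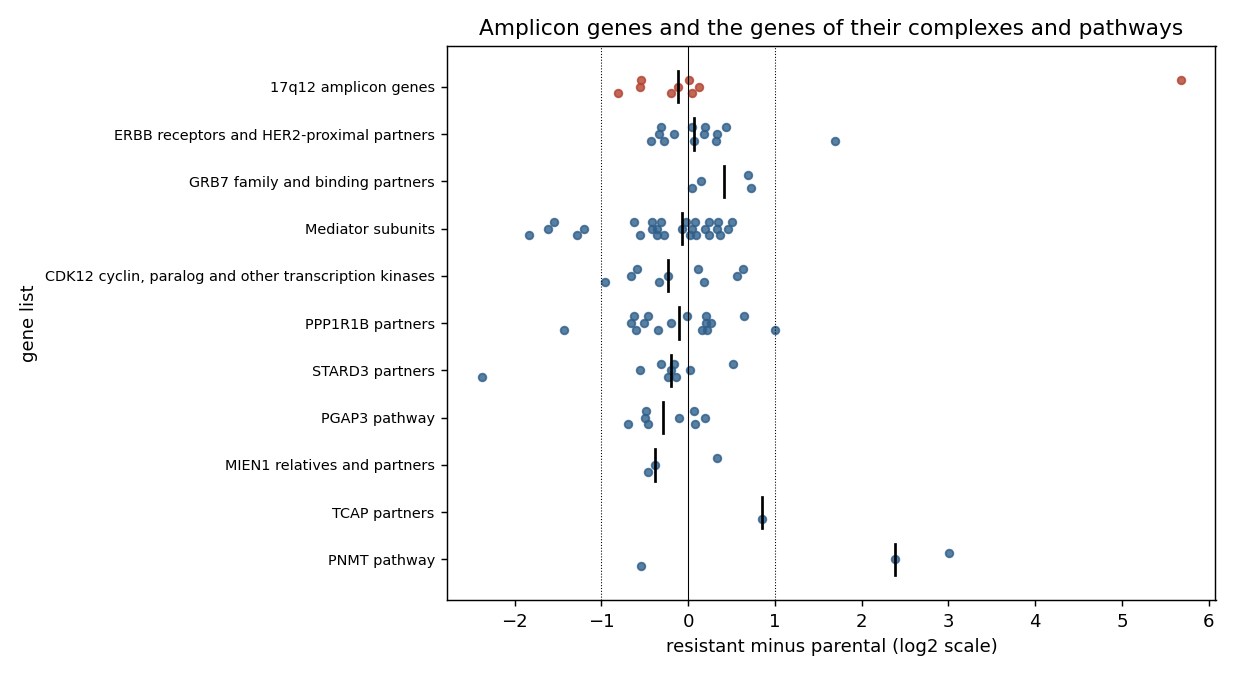
Difference (resistant minus parental, log2 scale, horizontal axis) of the amplicon genes (top, red) and of the listed partner genes at or above the floor (blue, without amplicon genes), with a black bar at each list's median and dotted lines at the size rule. PPP1R1B at 5.68 lies to the right of all points shown, and the 5 lower Mediator genes lie between -1.84 and -1.20.

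The remaining lists held 3 called genes. Of 9 genes of sterol transport and organelle contacts around STARD3, OSBPL8, a lipid transfer protein gene, was lower, with 10.2 on the resistant and 12.5 on the parental array (-2.37), and its chromosome 12 neighbours had a median of -1.16. None of 9 genes of GPI anchor remodelling was called. Their median over the 8 at or above the floor was -0.28, and PGAP6 differed by -0.69. None of 3 relatives and partners of MIEN1 was called, and SELENOT, which belongs to the same thioredoxin-like family, differed by -0.47. Of 8 sarcomere genes 7 lay under the floor, and ANKRD1 differed by 0.86. Of 7 catecholamine genes, MAOA and DDC were called higher. MAOA, which degrades monoamines, was at least 6.12-fold higher (8.40 on the resistant and 5.40 on the parental array, which is under the floor). DDC, aromatic amino acid decarboxylase, was at least 3.61-fold higher (7.64 on the resistant and 5.26 on the parental array). The chromosome 7 neighbours of DDC had a median of 0.73. With the floor at the 75th percentile neither MAOA nor DDC was called. TH and DBH, which act upstream of PNMT, did not reach the floor.

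Marker genes fitted an epithelial line in part. EPCAM, KRT8, KRT18, KRT19 and CDH1 were at or above the floor on both arrays, CDH1 with a difference of -1.10, whereas the gastric markers TFF1 and CLDN18 were under it. Of 17 measured markers of immune, fibroblast, endothelial, muscle and neuroendocrine cells, 15 stayed under the floor, and the other 2, CD68 and ACTA1, differed by -0.26 and by less than 0.01.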

How the data were processed

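RNA of 1 resistant and 1 parental culture was labelled with biotin and hybridised to 1 array each. The deposited table holds log2 values for 70523 rows, made by the authors with Affymetrix Expression Console, per the submitters' processing notes. The algorithm, annotation and genome build were not given in the sources used here, and the log base was taken as log2, that program's usual output. Column medians were 4.76 on both arrays, and 693 rows on the resistant and 650 on the parental array exceeded 16. Precision is limited by the number of arrays.

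Rows were named through the platform annotation (25324 rows, 23781 with 1 symbol), with symbols updated through the GRCh38.p14 gene table. That gene table also gave gene order, chromosome and which genes are protein-coding. Rows with several symbols were not used, except the joint ERBB2 row, and a gene with several rows took the one with the highest mean, which left 22412 genes. No test was possible, so the size rule and floor stand in for one. Named were all 10 members, the gene between them, up to 4 called flanking genes on each side, up to 3 called genes per list (or the most different one at or above the floor), EGFR, ERBB3 and the 3 genes closest to PPP1R1B. The members and lists were chosen with earlier results of these data known. Sequences came from RefSeq tables. Alternatives were 3 array scalings, chromosome medians, row averaging, other floors, thresholds, gene sets and flank widths. Python 3.11.15, pandas 2.3.3 and statsmodels 0.14.6 were used. The size rule was run on simulated data with planted shifts and an assumed noise. That run checks the code only, because the noise between these arrays was not measured.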

Additional observations from a re-analysis of the deposited data

How the results depend on the processing

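PPP1R1B stayed the 1 member called higher under every alternative run, and the ERBB2 row (-0.57 to -0.20), MED1 (-0.59 to -0.22) and PGAP3 (-0.85 to -0.47) kept their negative sign and were not called at the size rule of 1. CDK12 depended on its row: -1.29 with the mean of its rows and -2.63 with the other row, an alternative chosen after seeing the data. Members called lower numbered 1 in place of 0 with the mean of rows (CDK12), the other CDK12 row or a 1.5-fold threshold (PGAP3). The median of the 10 members, -0.06, was -0.16 with quantile normalization, the mean of rows or the other CDK12 row, and 0.29 less the flanking median, also chosen after seeing the data. The flanking median of -0.34 was -0.14 with no floor and -0.45 with 10 genes on each side. Flanking genes called higher numbered 5 at 1.5-fold, 0 at a threshold of 2, 1 with 10 and 4 with 25 genes on each side, against 2. Those called lower numbered 1 with the floor at the 75th percentile, 6 at 1.5-fold, 0 at a threshold of 2 and 5 with 25 genes on each side, against 3. Partner genes called numbered 7 less chromosome medians, 24 at 1.5-fold and 3 at a threshold of 2, against 11. Of all genes at or above the floor, 17.7% were called less chromosome medians, 37.3% at 1.5-fold and 4.33% at a threshold of 2. That share was 24.3% with the floor at the 75th percentile, against 18.7% in the main setting. At that higher floor the share rose, while partner genes called numbered 8 against 11. The counts under each setting are to be read beside the share of that setting. Counting joint rows of a gene and microRNAs added no flanking gene. No paired analysis was possible because each group has 1 array. For the same reason no array could be left out.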
